A study of Homo sapiens with 2 samples.

Results

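The scavenger receptors that have been named as candidate receptors for silica and other particles were followed in HepG2 cells, an established line from a human liver tumour (hepatoma), after exposure to amorphous silica nanoparticles. The genes were taken from a list of 10 names (MARCO, MSR1, SCARB1, SCARB2, SCARF1, CD36, CD68, OLR1, STAB1 and STAB2), and all 10 were measured, each by 1 probe, among the 18417 genes of the deposited table. The study held 2 Affymetrix arrays: 1 of HepG2 cells exposed to SiO2-NP at 100 mg/L for 24 h, and 1 of control HepG2 cells. Both groups were cells of 1 line grown alone in MEM medium, so neither held the macrophages or sinusoidal endothelial cells of a liver, and the labels name no particle size, serum content or separate cultures. The values are log2 intensities of whole probe sets as the authors deposited them. The word probe stands for 1 such probe set throughout. With 1 array per group there was no replicate error, no test was possible, and higher and lower describe these 2 arrays only.

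Scavenger receptors are cell surface or lysosomal membrane proteins, grouped into classes by structure, that bind modified lipoproteins, dead cells, microbes and mineral particles. Macrophages use the class A receptors MARCO and MSR1 to take up particles, and in liver the class H receptors STAB1 and STAB2 clear waste molecules through the sinusoidal endothelium. Hepatocytes use the class B receptor SCARB1 to take cholesterol from high-density lipoprotein (HDL).

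In HepG2 cells 3 of the 10 genes, SCARB1, SCARB2 and CD68, passed a filter on level, and none of the 10 differed by as much as 1.5-fold between the exposed and the control cells, a difference that 0.7% of all genes reached. The member with the largest difference was CD36, 1.23-fold lower in the exposed cells at a dim probe, followed by MARCO, 1.18-fold higher, also dim. The 3 genes that passed the filter differed by between -0.11 and 0.05 on the log2 scale. The filter asks for a mean over both arrays at or above the median of all gene means, a log2 intensity of 7.26, and is not a detection call. In RNA of whole cultures, fewer cells with a transcript and less of it per cell cannot be told apart.

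The starts of SCARB2 and CD68 are shown because these members passed the level filter with very different numbers of CG pairs before the gene start. Each line gives the 250 bases before the start, credited to RefSeq (GRCh38.p14), 5′ to 3′ on the strand of the gene, with CG pairs in capitals. SCARB2 lies on the minus strand at chr4:76213825-76214074 and CD68 on the plus strand at chr17:7579388-7579637.
SCARB2: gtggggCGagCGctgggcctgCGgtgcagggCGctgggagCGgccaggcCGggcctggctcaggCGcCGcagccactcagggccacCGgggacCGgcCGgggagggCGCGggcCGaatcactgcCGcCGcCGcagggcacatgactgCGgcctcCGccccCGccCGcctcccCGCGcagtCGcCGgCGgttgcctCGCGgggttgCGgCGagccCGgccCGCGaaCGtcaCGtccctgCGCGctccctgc
CD68: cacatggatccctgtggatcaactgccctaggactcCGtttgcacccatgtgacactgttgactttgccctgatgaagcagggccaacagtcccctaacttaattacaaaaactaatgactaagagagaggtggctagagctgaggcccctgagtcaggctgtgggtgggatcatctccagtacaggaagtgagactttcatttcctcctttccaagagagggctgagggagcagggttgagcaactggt
The SCARB2 stretch held 37 CG pairs at 80.8% G and C, and 96.0% of the 35116 gene starts in the RefSeq table held fewer CG pairs. The CD68 stretch held 1 CG pair at 51.6% G and C, where the median of all starts was 58.0%. Starts were read for 6 of the 10 members, and a member not read is not thereby absent from the RefSeq table. Among dim members, STAB1 held 11 CG pairs, equal to the median of all starts, STAB2 held 6, MARCO held 5, and the 6 annotated starts of CD36 held 1 or 2 each. CD68 thus passed the level filter with fewer CG pairs before its start than STAB1, STAB2 or MARCO, which did not pass it. The motif AGGAAGT, of the type bound by the myeloid factor PU.1, was searched on both strands and matched once in the CD68 stretch, against 7.01% of all starts with a match. The motif TGACGT, the core of sites for CREB-type factors, matched once before SCARB2, against 7.10% of all starts. The E-box CACGTG, core of the sites that lysosomal genes share, matched before none of the 6 members read, against 6.34% of all starts. The TATA motif TATAAA matched only before dim CD36, once at some of its 6 starts, against 10.7% of all starts. Such matches describe letters only, and the motifs were chosen with the sequences in view.

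SCARB1, the class B receptor that takes up cholesteryl esters from HDL, had a log2 intensity of 9.88 in the exposed cells and 9.83 in the control cells. The difference of 0.05 was a 1.04-fold higher level after SiO2-NP. SCARB2, known as a lysosomal membrane protein that carries the enzyme glucocerebrosidase to the lysosome, had 9.28 in the exposed cells and 9.36 in the control cells. It was 1.06-fold lower after SiO2-NP, a difference of -0.09. CD36, the third class B receptor, which takes up long-chain fatty acids and oxidised lipoproteins, had 5.28 in the exposed cells and 5.57 in the control cells. Its difference of -0.29 was the only one of the 10 past 1.2-fold, and its level was below the filter in both arrays. None of the 3 class B genes reached 1.5-fold.

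CD68, a class D protein of late endosomes and lysosomes used as a macrophage marker, had 9.49 in the exposed cells and 9.61 in the control cells. It was 1.08-fold lower after SiO2-NP, with a difference of -0.11. Of the 12 macrophage and leukocyte markers listed, which did not include CD68, only LYZ, encoding lysozyme, passed the level filter, at 13.27 in the exposed cells and 13.23 in the control cells. The pan-leukocyte marker PTPRC had 3.71 in the exposed cells and 3.65 in the control cells. The macrophage growth factor receptor CSF1R had 6.44 in the exposed cells and 6.04 in the control cells. CD68 was thus above the level filter on arrays where 11 of these 12 markers were below it.

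MARCO, a class A receptor known for silica binding in mouse macrophages, had 6.84 in the exposed cells and 6.61 in the control cells, a difference of 0.23. MSR1, the other class A receptor, had 3.82 in the exposed cells and 3.72 in the control cells. OLR1, the class E lectin-like receptor for oxidised low-density lipoprotein, had 4.55 in the exposed cells and 4.39 in the control cells. All 3 lay below the level filter in both arrays, and each was slightly higher on the SiO2-NP array.

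SCARF1, a class F receptor first described in endothelial cells, had 6.89 in the exposed cells and 6.79 in the control cells, a difference of 0.10. STAB1, which is used by sinusoidal endothelium and some macrophages, had 6.78 in the exposed cells and 6.74 in the control cells, a difference of 0.04. STAB2, the hyaluronan receptor of sinusoidal endothelium, had 5.43 in both, with a difference of 0.0028. Of 11 endothelial markers, 0 passed the level filter. The sign of STAB1 and STAB2 depended on the scaling: STAB1 was -0.03 and STAB2 -0.08 after the differences were centred on a running median by level.

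**Figure D1:**
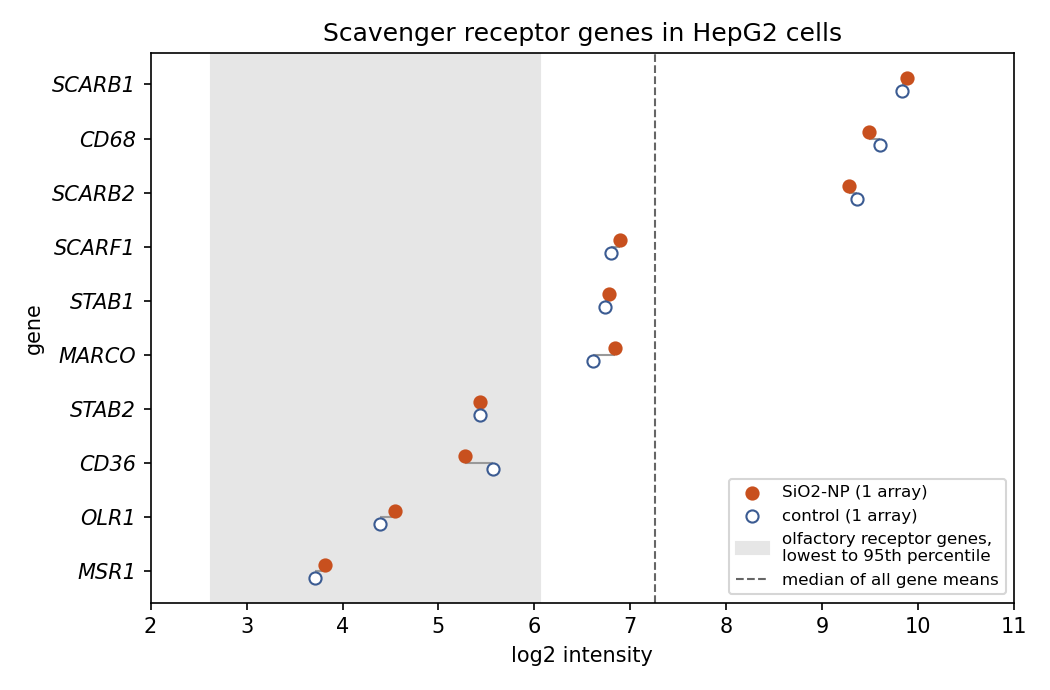
Log2 intensity of each scavenger receptor gene on the SiO2-NP array (filled) and the control array (open), genes running down the page by mean level; the dashed line is the median of all gene means (7.26) and the grey band runs from the lowest to the 95th percentile (6.06) of the olfactory receptor genes. SCARB1, CD68 and SCARB2 lie to the right of the line, and OLR1, MSR1, CD36 and STAB2 lie in the band.

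A dim probe cannot be told from an absent transcript here, because scanner files with background calls are not used here. Olfactory receptor genes, whose use in these cells was not checked, gave a view of what many dim probes read on these arrays. The 341 olfactory receptor genes had a median of the 2-array means of 4.76 and a 95th percentile of 6.06, and none passed the level filter. MSR1, OLR1, CD36 and STAB2 were under that percentile: 86.8% of the olfactory receptor genes read as high as MSR1 or higher, 59.2% as high as OLR1, 22.0% as high as CD36 and 21.7% as high as STAB2. MARCO, STAB1 and SCARF1 lay between the 95th percentile and the level filter, with 0.587% of the olfactory receptor genes at or above each. Intensities of different probes also depend on how well each probe binds, so these positions are not an order of transcript abundance.

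Markers of the cells were read against the same levels. Under the 95th percentile of the olfactory receptor genes lay 7 of the 12 macrophage and leukocyte markers. So did 6 of the 11 endothelial markers and 2 of the 8 fibroblast and stellate cell markers. All 11 measured hepatocyte and hepatoma markers passed the level filter, with a median difference of -0.03, among them ALB, encoding albumin, at 13.41 in the exposed cells and 13.50 in the control cells. The summed linear intensity of the 12 macrophage and leukocyte markers was 10484 in the exposed cells and 10175 in the control cells, and LYZ alone made up 93.9% and 94.4% of these sums. Without LYZ the other 11 markers summed to 639 in the exposed cells and 568 in the control cells. All 12 of these markers were above the control by 0.04 to 0.40. Of them, 11 were below the level filter, where 64.3% of all genes were above the control. The summed linear intensity of the 11 endothelial markers was 752 in the exposed cells and 713 in the control cells. Of 8 fibroblast and stellate cell markers, COL1A1 and ACTA2 passed the filter, and the summed intensity was 1412 in the exposed cells and 1374 in the control cells. The part of these shifts in the differences of the receptor genes was not tested.

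The receptor genes were then set beside the whole table. At 1.5-fold, 0 of 10 members passed in either direction, where 0.7% of all 18417 genes did, and 0 of the 3 members at the level filter passed, where 0.391% of the genes there did. At 1.2-fold, 1 of 10 passed (CD36, lower), where 14.7% of all genes did. The median difference of the 10 genes was 0.05, against 0.01 over all genes, and 7 of the 10 were above the control, against 52.3% of all genes. That count rested on values near 0: it was 6 after quantile normalization or centring on the array median and 5 with the running median taken out. Of the 7 dim members, 6 were above the control, as were 64.3% of the 9208 genes below the filter, and 4 were with the running median taken out. Of the 3 members at the filter, 1 was above the control, as were 40.2% of the 9209 genes there.

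**Figure D2:**
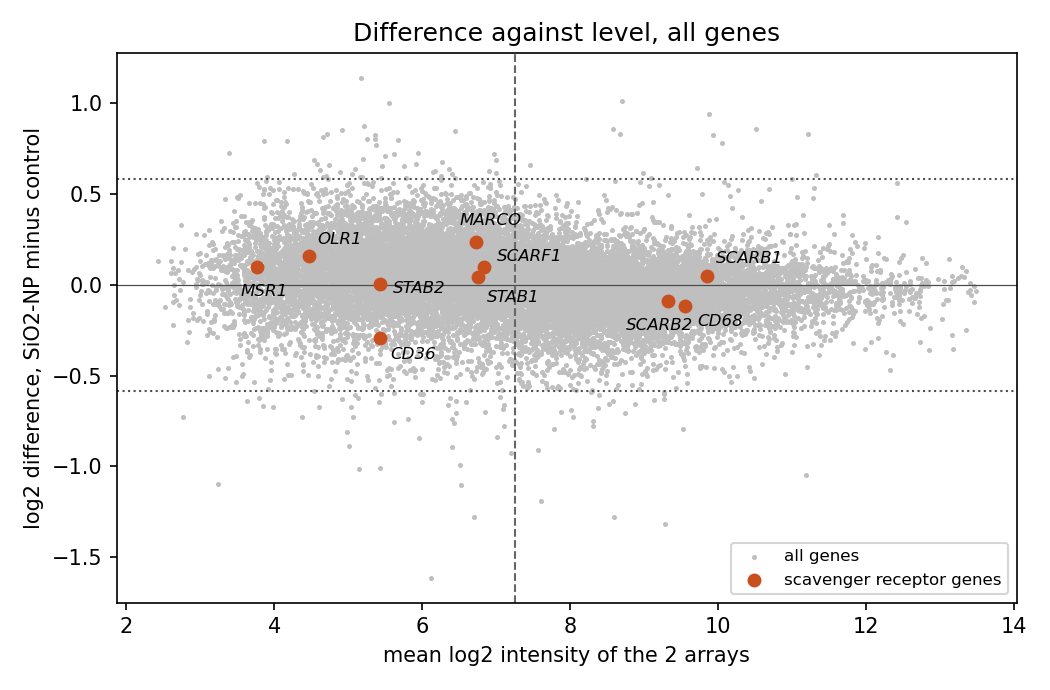
Log2 difference, SiO2-NP minus control, against the mean log2 intensity of the 2 arrays for all 18417 genes (grey) and the 10 scavenger receptor genes (orange, named); dotted lines mark 1.5-fold and the dashed line the level filter. All 10 receptor genes lie inside the dotted lines and inside the cloud of genes of like level.

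Each member was also set beside the 500 other genes nearest to it in level, as a description of how far genes of that intensity spread between the 2 arrays. None of the 10 lay outside the central 95% of its neighbours. The neighbours of CD36 spread from -0.32 to 0.45 around a median of 0.09. Of them, 14.4% had a difference at least as large in size as the -0.29 of CD36, counting both directions. CD36 thus lay near the lower end of that spread, and was at -0.38 with the running median taken out. The neighbours of MARCO spread from -0.35 to 0.43, and 25.4% differed as much or more. The neighbours of SCARB1 spread from -0.33 to 0.25, those of SCARB2 from -0.32 to 0.21 and those of CD68 from -0.34 to 0.22. Differences at least as large as that of SCARB1 were held by 69.2% of its neighbours, and the shares were 52.4% for SCARB2 and 40.0% for CD68.

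The genes whose pair of intensities was most like that of a member were found by Euclidean distance over the 2 arrays, which is a likeness in level more than in response. ADIPOR2 and MKLN1 were nearest to SCARB1, at distances of 0.010 and 0.011. DPY19L1 and METTL17 were nearest to SCARB2, at 0.0053 and 0.011, and HPS3 and RBM25 to CD68, at 0.0061 and 0.011.

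Genes that work with the receptors were taken from 5 lists, and no gene of any list passed 1.5-fold, which 0.7% of all genes did. Of all genes at the level filter, 40.2% were above the control, with a median of -0.03. The list around SCARB1 held its lipoprotein ligands, enzymes that remodel HDL, sterol exporters and transcription factors. Of its 15 measured members, 12 passed the level filter, 8 of these were above the control, and their median was 0.07. SREBF2, the transcription factor that drives genes of cholesterol synthesis and uptake, had 9.57 in the exposed cells and 9.08 in the control cells, a difference of 0.50. SREBF1, its paralogue for fatty acid synthesis, had 8.35 in the exposed cells and 8.07 in the control cells. LIPG, an endothelial-type lipase that acts on HDL, had 8.34 in the exposed cells and 7.89 in the control cells, a difference of 0.45. APOA1, the main protein of HDL, differed by 0.10. SCARB1 itself, at 0.05, differed by less than these 4, but SREBF2, LIPG and SREBF1 were named for having the largest differences. APOA2 at 0.01, APOE at -0.02 and PLTP at -0.02 differed by less than SCARB1, and the other measured members of the list by more.

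The list around SCARB2 and CD68 held lysosomal genes. All 15 measured members passed the level filter, with 7 above and 7 below the control, and a median of 0.00. The transcription factor TFE3, named after its value was seen, read the same on both arrays. NPC1, the lysosomal cholesterol exporter, had 10.83 in the exposed cells and 10.53 in the control cells, a difference of 0.29. The protease CTSB had 11.45 in the exposed cells and 11.66 in the control cells, a difference of -0.21. SLC38A9, an amino acid sensor of the lysosomal membrane, differed by -0.17. The membrane proteins LAMP1 and LAMP2, relatives of CD68 in structure, differed by -0.02 and 0.04.

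The list around CD36 held fatty acid transporters, partner kinases and receptors, and acyltransferases. Of 18 measured members 10 passed the filter, 4 of them above the control, with a median of -0.06. Over all 18, 11 were above the control and the median was 0.03, so the list had no settled direction. Its largest difference, 0.53, was that of FABP4, a fatty acid carrier named after its value was seen, whose probe was dim at 4.12 in the exposed cells and 3.59 in the control cells. SLC27A2, a fatty acid transporter and acyl-CoA synthetase of hepatocytes, had 9.87 in the exposed cells and 10.14 in the control cells, a difference of -0.26. ZDHHC4, a palmitoyltransferase that acts on CD36, had 9.97 in the exposed cells and 9.73 in the control cells, a difference of 0.25. The integrin chain ITGB1 differed by -0.18. PPARG, a nuclear receptor that activates CD36 in macrophages, had 8.79 in the exposed cells and 8.61 in the control cells, with a difference of 0.18.

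Other genes of the scavenger receptor superfamily were read in 17 genes, of which 7 passed the level filter, 3 of these above the control, with a median of -0.0036. SCARF2, the class F relative of SCARF1, had 8.11 in the exposed cells and 7.77 in the control cells, a difference of 0.33. SSC5D, a soluble receptor with scavenger receptor cysteine-rich domains, differed by 0.15. The hepatocyte asialoglycoprotein receptor chains ASGR1 and ASGR2, which take up desialylated glycoproteins, differed by -0.04 and -0.10. LRP1, a large endocytic receptor of hepatocytes, had 10.47 in both, with a difference of -0.0036.

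Other receptors and adaptors for particles and dying cells were read in 18 genes, of which 7 passed the level filter. Of these 7, 6 were above the control, with a median of 0.10, where 40.2% of all genes at the filter were above. Over all 18 measured genes 15 were above, where 52.3% of all genes and 64.3% of the genes below the filter were. ITGAV, the integrin chain that binds vitronectin-coated surfaces, had 11.12 in the exposed cells and 10.84 in the control cells, a difference of 0.28. MERTK, a receptor kinase for dying cells, had 10.40 in the exposed cells and 10.21 in the control cells, a difference of 0.19. DOCK1, which activates the small GTPase RAC1 in engulfment, differed by 0.14. The median over all genes at the level filter was -0.03.

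**Figure D3:**
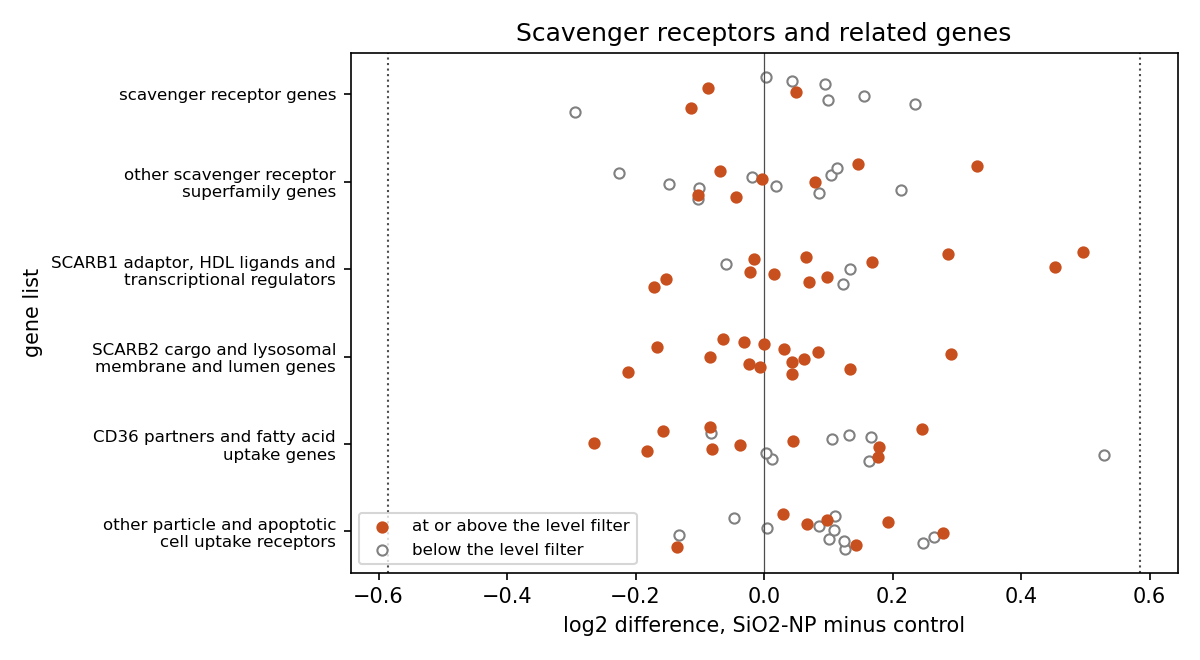
Log2 difference, SiO2-NP minus control, of the scavenger receptor genes and of 5 lists of related genes, 1 point per gene; filled points are at or above the level filter, open points below it, and dotted lines mark 1.5-fold. No point lies past the dotted lines, and the filled point farthest to the right is SREBF2, at 0.50.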

How the data were processed

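The authors' deposited table holds 1 log2 intensity per probe set and array (33297 probes, values from 2.08 to 14.4, array medians 6.69 for SiO2-NP and 6.65 for control). The log2 scale was read from the values. RMA and MAS5 are named in the submitters' processing notes, without saying which gave these values. If RMA did, array distributions were made equal and a shift common to most genes is hidden. Arrays carry no read depth, and precision is limited by their number.

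The platform annotation gave 1 gene symbol for 19460 probes, several for 1754 (not used) and none for 12083. Probes of a gene were averaged (18417 genes). Differences are SiO2-NP minus control, counted at 1.5-fold (0.58 on the log2 scale). The fold count and the running median were checked on simulated differences, and quantile normalization on the arrays, with outcomes fixed by construction. The level filter, the averaging of probes and the neighbours in level were not checked in this way. Named genes were all 10 members, the 3 largest absolute differences per related list among genes at the level filter, 10 fixed partner genes where measured, and the 2 nearest genes of each member at the filter. Markers named were chosen after their values were seen. Some listed genes are not analysed here. The members and lists were chosen with earlier results of these data known. Alternatives were other level filters, folds, scalings and probe rules. Software comprised NumPy 2.4.6 and pandas 2.3.3 under Python 3.11.15, with matplotlib 3.10.9 for plots.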

Additional observations from a re-analysis of the deposited data

How the results depend on the processing

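The level filter decided how many of the 10 receptor genes passed: 3 did at the median gene mean, 3 at the 75th percentile and with both arrays required to reach the median, and 6 at the 25th percentile, which by its construction admits dimmer genes. The count past a fold threshold was 0 at 1.5-fold and 2-fold and under 5 other scalings and probe rules, and 1 at 1.2-fold. Probe rules could not move a member, because none had a second probe, and a count of 0 at 1.5-fold fixes that at 2-fold. The median difference over the members was 0.05, and it was -0.09 over the 3 at the level filter, 0.0063 with arrays centred on their medians, 0.03 with quantile normalization and -0.0054 with a running median taken out. Its sign thus changed with the filter and the scaling. So did the medians of 2 related lists: the CD36 list went from -0.06 to 0.03 with all measured genes, and the other superfamily genes from -0.0036 to 0.02 with the running median taken out and 0.04 with quantile normalization. The largest move of a single member was 0.08. STAB1 and STAB2 alone changed sign under an alternative, STAB2 also to -0.04 after quantile normalization or centring on the array median. A pseudocount was not needed on log2 values. No paired analysis was possible because the groups had a single array each, which also left no replicate to leave out. Dim probes limit what can be said of 7 of the 10 genes.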
